A study of Mus musculus with 6 samples.

Results

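The serpins are a superfamily of protease inhibitors and related proteins, sorted by sequence into clades that the letter in the gene symbol names. Expression of the family was read in 6 mouse samples with 1 one-colour array each. A gene was a member if its symbol was Serpin followed by a clade letter from a to i and a number, which leaves out Serping1. By that rule 38 of the 18193 genes named on the array were members: 13 of clade A, 18 of clade B, 1 each of clades C, D and H, and 2 each of clades F and I. Each gene was read from its probe set with the highest mean signal over the 6 arrays.

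The groups were bone marrow-derived dendritic cells (BMDC, 2 arrays), follicular dendritic cells grown in vitro (FDC, 2 arrays), FL-Y (1 array), and FL-Y activated by way of the lymphotoxin beta receptor (1 array). FL-Y is an FDC-like line transformed with SV40, so both FL-Y arrays come from a single line. The mouse strain, age and culture conditions were not given in the sources used here. Whether the arrays of a pair stand for separate cultures or mice is not labelled, so a p-value here measures no more than the spread between 2 arrays of a kind, which may be technical.

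Most serpins inhibit a serine protease by offering a reactive loop as bait: the enzyme cuts it, stays bound to the serpin by a covalent bond and is distorted. Clade A and clades C to F are mostly secreted and act in plasma or in the extracellular matrix, while clade B serpins lack a classical signal peptide and act largely inside cells, where several neutralise the granule proteases of leukocytes. A few members inhibit nothing: Serpinh1 is a collagen chaperone of the endoplasmic reticulum, and Serpinf1 is a secreted factor that restrains the growth of blood vessels. FDC are stromal cells that display antigen to B cells, while BMDC belong to the myeloid lineage and present antigen to T cells.

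The array medians lay between 47.8 and 84.1 signal units, with the lowest on the activated FL-Y array, and log2 signals correlated at r = 0.920 between the BMDC arrays and r = 0.907 between the FDC arrays (over probe sets, which are no replicates). The labels were set against marker genes. The summed signal of 8 myeloid markers was 223527 and 164593 in BMDC, 3156 and 2010.1 in FDC, 374.6 in FL-Y and 299.3 in activated FL-Y. The sum of 8 fibroblast and mural cell markers ran the other way, at 2795.1 and 1807 in BMDC against 104954 to 225451 on the other 4 arrays. The 8 FDC markers did not set FDC apart: they summed to 34987.1 and 33473.8 in BMDC, 17366.5 and 13768 in FDC, 12760.4 in FL-Y and 13075 in activated FL-Y. Mfge8 made up most of the BMDC sum, with 27357.5 and 25081.7 in BMDC against 5146.4 and 6483.8 in FDC, followed by Clu with 5854.2 and 6164.2 against 148.3 and 16.6. Vcam1 was higher in FDC, at 6959.3 and 5764.4 against 108.4 and 874.7. Cr2, the complement receptor that defines FDC in the follicle, was at 119.5 and 4.1 in FDC and at no more than 71.1 elsewhere, and Cxcl13, their B cell chemokine, was at 1288.2 and 64.5 in FDC and at no more than 50.9 elsewhere. The 7 mast cell markers summed to 4934.8 and 884.3 in BMDC, 7647 and 13587.3 in FDC, and 311.6 and 199.9 on the FL-Y arrays. The 5 T cell markers named on the array summed to 190.3 and 92.7 in BMDC, 2124.1 and 1168.8 in FDC, and 83.5 and 47.9 on the FL-Y arrays. Sums of the 6 neutrophil markers were 84102.1 and 142479 in BMDC, 590.4 and 434 in FDC, and 122.8 and 90.8 on the FL-Y arrays. In bulk RNA, fewer cells of a type and less RNA per cell cannot be told apart.

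Signals within the family ran from a small number of strongly expressed genes to many dim ones. Of the 38 serpins, 17 had a signal above 100 on any array, and 21 never did. Among the 17, Serpina1b, Serpinb12 and Serpind1 passed it only narrowly, with highest signals of 115.7, 115 and 107.9. The median of every array was below 100. The share of all genes above it is not given here, so these counts mark no trait of the family. Those 21 dim serpins had a median signal between 6.7 and 28.5 on the single arrays. Both arrays were above 100 for 9 serpins in BMDC and 13 in FDC, and the single array was above 100 for 6 serpins in FL-Y and 7 in activated FL-Y. Clade B accounted for all 9 in BMDC, 8 of the 13 in FDC, 4 of the 6 in FL-Y and 5 of the 7 in activated FL-Y. The 5 remaining serpins of FDC were Serpina3i, Serpina3n, Serpinf1, Serpinh1 and Serpini1.

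**Figure D1:**
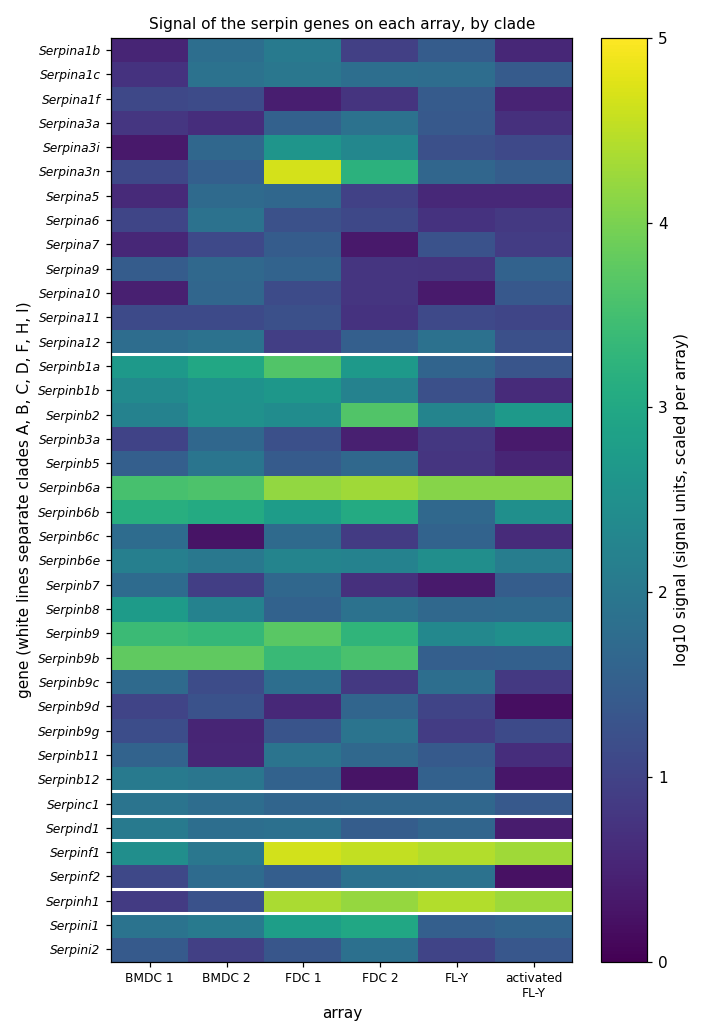
Signal of the 38 serpin genes (rows, grouped by clade) on the 6 arrays (columns), with colour giving log10 of the signal. Serpinf1 and Serpinh1 are bright on the FDC and both FL-Y arrays, while in BMDC Serpinh1 is dark and Serpinf1 lies in between. Serpina3n is bright on FDC array 1, and 10 of the 13 clade A genes stay below a signal of 100 on all 6 arrays.

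The design implies a comparison of FDC with BMDC, for which 17 of the 38 serpins had enough signal to be tested. Of these, 5 were higher in FDC and 0 were lower by limma at an adjusted p under 0.05. The same calls were made for 5.99% (higher) and 5.45% (lower) of all 12747 genes tested. Without adjustment, 6 serpins were higher and 1, Serpinb8, was lower at a limma p under 0.05. The shares of all genes above hold after adjustment and are no background for these unadjusted counts, for which the share is not given. The median log2 difference of the 17 tested serpins was 1.10, against -0.03 over all genes tested. Neither that median nor the count speaks for the other 21 serpins, because Serpinh1, Serpina3n, Serpina3i and Serpina1c were tested only by virtue of their FDC signals and Serpinc1 only by virtue of its BMDC signals. Differences are on the scale of log2(signal + 14.2), which understates those of dim genes.

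**Figure D2:**
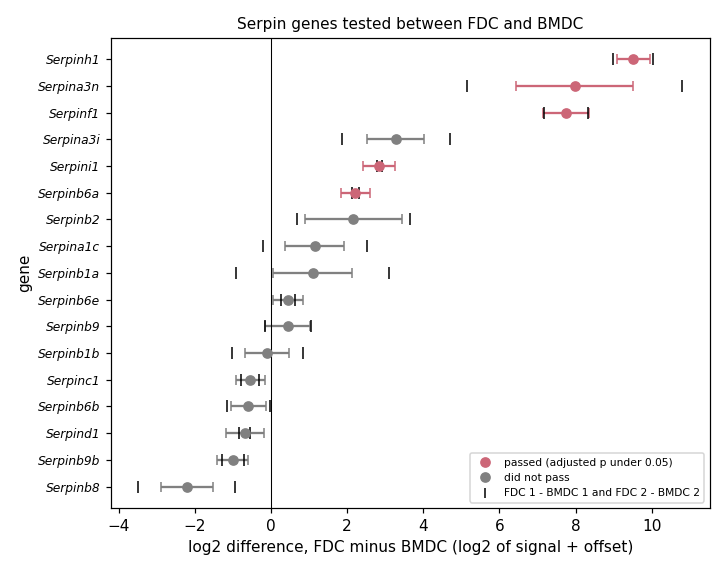
Log2 difference between FDC and BMDC for the 17 tested serpin genes (points, mean of 2 arrays minus mean of 2 arrays, bars ± SE from limma), with the differences of the first and of the second arrays as ticks. The 5 red genes passed at an adjusted p under 0.05. The ticks of Serpina3n lie at 5.14 and 10.80, far apart, while those of Serpini1 and Serpinb6a lie close to their mean.

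Promoter sequence was available from RefSeq (GRCm38.p6) for 34 of the 38 serpins, read as the 250 bases upstream of the start on the gene's strand. Shown are those of the 3 serpins with the largest differences between FDC and BMDC by their main probe set (Serpinh1, Serpinf1 and Serpina3n) and of Serpinb2 and Serpinb6b, the serpins above 100 that were at least 2-fold higher on activation, since the results below turn on them. Capitals mark matches to 8 short motifs, searched on both strands.
Serpinh1 lies at chr7:99353240-99353489 on the minus strand, Serpinf1 at chr11:75422624-75422873 on the minus strand, Serpina3n at chr12:104406458-104406707 on the plus strand, Serpinb2 at chr1:107511173-107511422 on the plus strand and Serpinb6b at chr13:32965011-32965260 on the plus strand.
Serpinh1: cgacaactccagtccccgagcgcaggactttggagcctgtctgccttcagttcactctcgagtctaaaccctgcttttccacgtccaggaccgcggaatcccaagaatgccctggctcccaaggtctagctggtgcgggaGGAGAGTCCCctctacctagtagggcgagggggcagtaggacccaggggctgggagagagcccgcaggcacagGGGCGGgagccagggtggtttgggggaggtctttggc
Serpinf1: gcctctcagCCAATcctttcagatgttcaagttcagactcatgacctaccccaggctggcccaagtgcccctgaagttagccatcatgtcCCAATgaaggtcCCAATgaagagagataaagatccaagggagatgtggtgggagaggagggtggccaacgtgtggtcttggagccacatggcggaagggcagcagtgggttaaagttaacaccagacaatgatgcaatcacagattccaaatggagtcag
Serpina3n: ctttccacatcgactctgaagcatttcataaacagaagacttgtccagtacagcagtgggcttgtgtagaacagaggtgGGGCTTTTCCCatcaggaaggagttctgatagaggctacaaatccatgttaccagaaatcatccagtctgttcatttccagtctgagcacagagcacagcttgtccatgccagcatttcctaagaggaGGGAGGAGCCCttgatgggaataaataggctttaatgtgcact
Serpinb2: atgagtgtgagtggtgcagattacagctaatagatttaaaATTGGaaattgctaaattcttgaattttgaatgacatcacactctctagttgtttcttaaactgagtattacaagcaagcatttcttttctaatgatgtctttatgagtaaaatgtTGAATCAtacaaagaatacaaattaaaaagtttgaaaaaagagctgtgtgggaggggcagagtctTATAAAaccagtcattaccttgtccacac
Serpinb6b: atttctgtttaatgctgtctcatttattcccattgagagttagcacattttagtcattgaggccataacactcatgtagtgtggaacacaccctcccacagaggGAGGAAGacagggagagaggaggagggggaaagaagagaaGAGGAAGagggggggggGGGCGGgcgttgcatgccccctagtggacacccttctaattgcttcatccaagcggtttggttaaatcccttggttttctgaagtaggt

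The Serpinh1 window held a GC box (GGGCGG) 37 bases upstream of the start and a loose NF-kB match (GGG, then 5 bases of any kind, then CC) at 110 bases. The Serpinf1 window held 3 CCAAT boxes (CCAAT), at 241, 160 and 148 bases. In the Serpina3n window, a pair of overlapping NF-kB matches began at 171 and 170 bases and another at 43 and 42 bases. The Serpinb2 window held a TATA box (TATAAA) at 29 bases, an AP-1 match (TGANTCA) at 94 bases and a CCAAT box at 210 bases. RefSeq gives Serpinb2 a second start, whose window (chr1:107511260-107511509, plus strand, not printed) held the same TATA box at 116 and AP-1 letters at 181 bases, and a STAT match (TTCNNNGAA) at 77 bases. The Serpinb6b window held a GC box at 89 bases and the purine-rich ETS letters GAGGAAG at 146 and 106 bases.

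With 2 starts for 6 of the genes, the 34 serpins had 40 windows. The NF-kB letters were in 13 of the 40, against 46.0% of all 32536 promoter windows of this length. The CCAAT box was in 14 of them and 33.8% of all windows, the GC box in 6 and 33.0%, and the TATA box in 10 and 12.3%. The AP-1 letters were in 9 and 6.73%, the ETS letters in 3 and 10.7%, the STAT motif in 7 and 7.04%, and a heat shock motif (GAANNTTC) in 2 and 6.72%. The windows of a gene with 2 starts can overlap. A match is a run of letters and shows no binding.

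Serpinh1 (Hsp47), the chaperone that holds the procollagen triple helix in the endoplasmic reticulum, was high in FDC and FL-Y and near background in BMDC. Its signal was 7.4 and 18.2 in BMDC, 22758.1 and 16524.9 in FDC, 27016.3 in FL-Y and 18105.6 in activated FL-Y. The BMDC signals lay on either side of the background mark of 14.2, and the other 4 arrays did not overlap with them. The log2 difference between FDC and BMDC was 9.52 ± 0.43 (SE, n = 2 per group; limma adjusted p = 0.00264). A second probe set gave BMDC signals of 76.3 and 87.2 and a smaller difference of 7.07 ± 0.38 (SE; limma adjusted p = 0.00264). The first probe set carries a suffix (_x_at) that marks probes shared with other transcripts, so its signals may be mixed. The direction was the same on both probe sets. The size was not: by the first probe set Serpinh1 had the largest difference of the tested serpins, and by the second it lay below Serpina3n and Serpinf1. The files hold no detection calls.

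The genes that share the collagen pathway with Serpinh1 were read from a list of collagens, collagen-modifying enzymes and matrix partners. Of 27 listed genes named on the array, all were tested, 18 were higher in FDC and 0 lower by limma, and their median log2 difference was 4.19. Of all 12747 genes tested, 5.99% were called higher and 5.45% lower, with a median of -0.03. Sparc, a collagen-binding matrix protein, had the largest difference, 10.17 ± 0.70 (SE), followed by Col3a1 at 9.14, Col1a1 at 8.88 and Col5a2 at 8.79. Col1a1, Col1a2 and Col3a1 are also among the fibroblast markers summed above. The list was chosen with earlier results of these data known, so its counts are a description and no test against those shares.

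Serpinf1 (pigment epithelium-derived factor) was the second serpin that FDC and FL-Y shared. Its signal was 300.1 and 95 in BMDC, 45352.8 and 34894.9 in FDC, 26300.2 in FL-Y and 19492.4 in activated FL-Y. The log2 difference between FDC and BMDC was 7.75 ± 0.60 (SE; limma adjusted p = 0.00362), and a second probe set gave 9.43 ± 0.37. No BMDC array came near the other 4 on either probe set. Serpinf2, its neighbour on chromosome 11 and the plasma inhibitor of plasmin, was never above 77.6 and was not tested. No protein-coding gene lies between the pair in the reference annotation.

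Serpina3n, a secreted acute-phase protein that inhibits proteases, was the most variable member. Its signal was 12.2 and 32.6 in BMDC, 47194.8 and 1641.3 in FDC, 44.0 in FL-Y and 30.3 in activated FL-Y. Only the FDC arrays were high, and FDC array 2 minus FDC array 1 was -4.83 on the log2 scale. The difference between FDC and BMDC was 7.97 ± 1.54 (SE; limma adjusted p = 0.0384), and the call was lost without BMDC array 1 (adjusted p = 0.105) or BMDC array 2 (adjusted p = 0.0842), and with the array number as a replicate block (adjusted p = 0.0570). The difference was 10.80 between the first arrays of each group and 5.14 between the second. The ratio of labelling to hybridisation control signals was 0.0550 and 0.0595 on the first BMDC and FDC arrays and 0.253 and 0.162 on the second. Its part in the gap between the FDC arrays was not tested.

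Serpina3i, a relative of Serpina3n from the same gene cluster on chromosome 12, followed a similar course at a lower signal, with 2.2 and 46.5 in BMDC, 410.6 and 205.5 in FDC, 16.9 in FL-Y and 12.9 in activated FL-Y. The FDC arrays were again the only ones above 100. The difference of 3.28 ± 0.74 (SE) missed the threshold by limma (adjusted p = 0.0589) and passed it without BMDC array 2 (4.22, adjusted p = 0.0338). The other 11 clade A genes were dim. They include Serpina6 and Serpina7, the plasma carriers of corticosteroids and thyroid hormone. Serpina1b reached 115.7 on FDC array 1, and none of the other dim clade A genes passed 97.7, the value of Serpina1c on that array. Serpina1b and Serpina1c encode forms of alpha-1-antitrypsin, which the liver makes in bulk. The difference of Serpina1c was 1.15 ± 0.78 (SE; limma adjusted p = 0.452; 95% confidence interval -0.82 to 3.12). The summed signal of 6 hepatocyte markers was between 60 and 207.1 on the 6 arrays.

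Serpini1 (neuroserpin), an inhibitor of tissue plasminogen activator, was high in FDC and low in FL-Y. Its signal was 81.9 and 114.2 in BMDC, 642.9 and 955.1 in FDC, 33.1 in FL-Y and 40.1 in activated FL-Y. The FDC arrays did not overlap with any other. The difference between FDC and BMDC was 2.84 ± 0.42 (SE; limma adjusted p = 0.0184), a 7.18-fold difference. The call was lost without FDC array 2 (adjusted p = 0.0528), BMDC array 1 (0.0790) or BMDC array 2 (0.0562). Of 2 further probe sets, the brighter gave 1.80 ± 0.70 (adjusted p = 0.202), and the other, never above 38.5, gave 0.04. Serpini2, the other gene of the clade, did not pass 69.2 on any array.

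Serpinb6a, an intracellular inhibitor that can bind cathepsin G, was the only clade B gene called. Its signal was 3547.6 and 3937.5 in BMDC, 15439.8 and 19469.0 in FDC, 12262.4 in FL-Y and 12322.2 in activated FL-Y. The gene was thus expressed on every array, and each FDC array was well above each BMDC array. The difference of 2.21 ± 0.38 (SE; limma adjusted p = 0.0279), or 4.63-fold, missed the threshold when any 1 array was left out, with adjusted p between 0.0627 without FDC array 1 and 0.119 without BMDC array 1.

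No other clade B gene passed the test. Serpinb9, the inhibitor of granzyme B, had signals of 2552.1 and 2091.0 in BMDC and 5291.8 and 1877.0 in FDC, so the groups overlapped. Its difference was 0.45 ± 0.59 (SE; limma adjusted p = 0.712; 95% confidence interval -1.04 to 1.93). Serpinb9b, a close relative, stood at 6148.9 and 5946.4 in BMDC and 2494.6 and 3628.7 in FDC. Its groups did not overlap and its arrays lay close together within each group, and its difference of -1.0 ± 0.40 (SE) had an adjusted p of 0.215 by limma and a confidence interval of -2.01 to 0.01.

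Serpinb6b, an intracellular relative of Serpinb6a, stood at 1343.4 and 1156.3 in BMDC and 592.1 and 1134.1 in FDC, a difference of -0.60 ± 0.47 (SE; limma adjusted p = 0.517; interval -1.77 to 0.58). Its FDC signals were both below those of BMDC, though 1 of them closely. Serpinb1a, an inhibitor of neutrophil elastase, proteinase 3 and cathepsin G, stood at 485.6 and 985.1 in BMDC and 4313.3 and 517.4 in FDC. FDC array 2 minus FDC array 1 was -3.03 on the log2 scale, and a BMDC array lay between them. The difference of 1.10 ± 1.04 (SE; adjusted p = 0.597) turned to -0.41 without FDC array 1. Serpinb1b was at 244.4 and 354.9 in BMDC and at 453.0 and 166.2 in FDC, and its difference was -0.09 ± 0.58 (SE; adjusted p = 0.946). The FDC arrays lay on either side of the BMDC arrays. Leaving out single arrays moved that difference between -0.78 and 0.60, and that of Serpinb9 between -0.30 and 1.19.

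Serpinb2 (plasminogen activator inhibitor 2), which inhibits urokinase, rested on 1 array. Its signal was 165.5 and 331.1 in BMDC, 274.2 and 4325.0 in FDC, 184.1 in FL-Y and 501.1 in activated FL-Y. FDC array 2 was the only one above 501.1, and FDC array 1 lay between the BMDC arrays. The difference of 2.17 ± 1.28 (SE; limma adjusted p = 0.390; interval -1.07 to 5.40) was 4.12 without FDC array 1 (adjusted p = 0.0292). Serpinb8, an intracellular inhibitor, leaned the other way, with 560.1 and 163.1 in BMDC, 37.2 and 77.7 in FDC, 48.2 in FL-Y and 51.9 in activated FL-Y. The BMDC arrays were both above the other 4, and the smallest gap between the groups was narrower than that between the BMDC arrays. The difference of -2.22 ± 0.68 (SE) had an adjusted p of 0.126 by limma, and a second probe set, too dim to be tested, gave -2.77. Serpinb6e differed by 0.45 ± 0.39 (SE; adjusted p = 0.568).

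Of the 18 clade B genes, 8 never passed 86.5 on any array. Among them were Serpinb5 (maspin) and Serpinb3a, serpins of squamous and glandular epithelium. The sum of 6 keratinocyte and epithelial markers was 1820.1 and 2098 in BMDC and between 117.8 and 305.5 on the other 4 arrays. Most of the BMDC sum was the adhesion gene Cdh1, at 1355.9 and 1351.5, and the 4 keratins of the list did not pass 140.6 on any array. Serpinb12 was dim as well but reached 115 and 91.9 on the BMDC arrays. The plasma inhibitors of clotting had low signals in every group, none above 107.9. Serpinc1 (antithrombin) had signals between 25.3 and 82.2, with a difference of -0.54 ± 0.38 (SE; limma adjusted p = 0.471; interval -1.50 to 0.42). Serpind1 (heparin cofactor II) had signals between 2.4 and 107.9, with a difference of -0.69 ± 0.50 (SE; adjusted p = 0.482; interval -1.94 to 0.57).

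**Figure D3:**
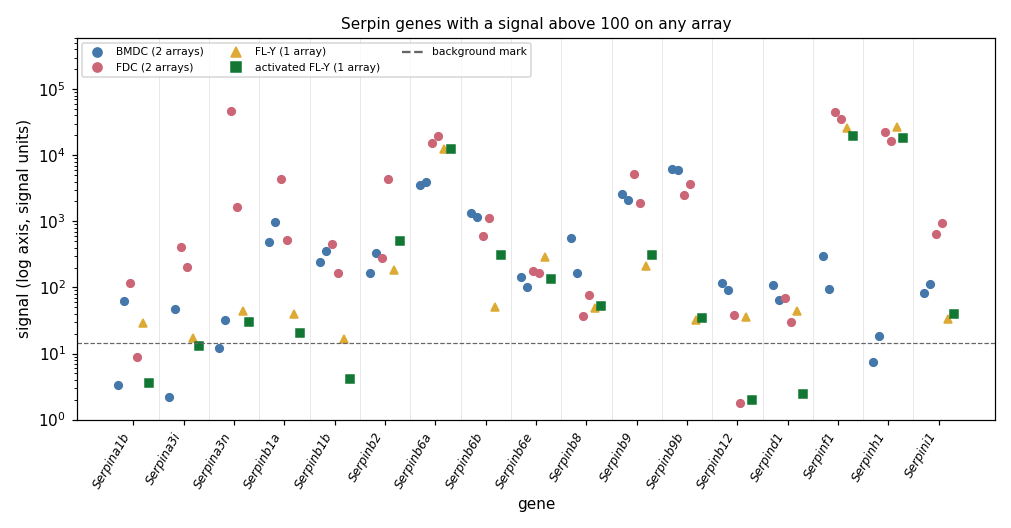
Signal on each array (points, log axis) of the 17 serpin genes above 100 on any array, with circles for the BMDC and FDC arrays, triangles for FL-Y and squares for activated FL-Y, and a dashed line at the background mark of 14.2. The FL-Y symbols of Serpinf1, Serpinh1 and Serpinb6a sit beside the FDC circles, while those of Serpina3n, Serpini1, Serpinb1a and Serpinb9b fall far below them.

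FL-Y was set against FDC without a test, since the line had 1 array. Of 33 serpins above 2 times the background mark on any of the arrays compared, 9 were at least 4-fold lower in FL-Y than the FDC mean, against 6.20% of all genes. None was at least 4-fold higher, against 2.81% of all genes. The median log2 difference was -0.71 over the 33 serpins and -0.14 over all 16593 genes. All 9 lower genes had FDC signals above 100 on both arrays, so they passed the mark there whatever their FL-Y signal.

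Secreted and intracellular serpins were both among the 9. The secreted ones were Serpina3n with a log2 difference of -7.25, Serpini1 with -4.08 and Serpina3i with -3.30, from the signals above. In clade B, Serpinb9b had an FL-Y signal of 32.1 and a difference of -6.03, which put it near background. Serpinb1a was at 40.1 in FL-Y with a difference of -4.80, and Serpinb1b at 16.5 with -3.24. Serpinb9 kept a signal of 214.8 with a difference of -3.79, and Serpinb6b was at 50.0 with -3.70. The difference of Serpinb2 was -2.5 and rested on FDC array 2, since it was -0.54 against FDC array 1 alone. Against BMDC the 5 clade B genes other than Serpinb2 were lower too, by log2 differences between -3.33 for Serpinb1b and -7.03 for Serpinb9b. Serpinh1, Serpinf1 and Serpinb6a held levels near those of FDC, with differences of 0.48, -0.60 and -0.50.

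Leukocyte markers moved with these differences. Myeloid, mast cell and T cell marker sums were all higher on the FDC arrays than on the FL-Y arrays, as given above, and their part in the clade B result was not tested. Between BMDC and FDC these lists went in different directions. The mean FDC sum was 1.33% of the mean BMDC sum for the myeloid markers and 0.452% for the neutrophil markers, while the mast cell and T cell sums were higher in FDC than in BMDC. The mean FDC signal was 50.6% of that of BMDC for Serpinb9b, 69.1% for Serpinb6b, 103% for Serpinb1b, 154% for Serpinb9, 328% for Serpinb1a and 15.9% for Serpinb8. For Serpinb1b, Serpinb9 and Serpinb1a these shares rested on FDC array 1, since FDC array 2 lay below the BMDC mean.

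The 5 clade B genes other than Serpinb2 also lie together on the chromosome. In the order of the reference annotation (GRCm38.p6), the clade B cluster on chromosome 13 runs Serpinb1a, Serpinb6b, Serpinb9, Serpinb9b and Serpinb1b among its measured members, then Serpinb9c, Serpinb9d, Serpinb9g, Serpinb6e, Serpinb6c and Serpinb6a, with no other protein-coding gene between serpins. Of these 11 genes, the first 5 in the row were the ones at least 4-fold lower in FL-Y. The other 6 differed from FDC by between -1.41 and 0.95 on the log2 scale. Of those, Serpinb9c, Serpinb9d, Serpinb9g and Serpinb6c were below 100 throughout, and Serpinb6e and Serpinb6a were above 100 on all 6 arrays. With the offset of 14.2, the FDC signals of Serpinb9c, Serpinb9d and Serpinb6c were too low for a 4-fold fall to show. That of Serpinb9g left hardly any room for it. The place in the row thus says little about these dim genes. This order was looked at after the values were known, and it is a description with no test. Genes of this cluster are close relatives, and the probe sets of Serpinb6c and Serpinb6e carry suffixes that mark probes shared with other transcripts, so their signals may be mixed.

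**Figure D4:**
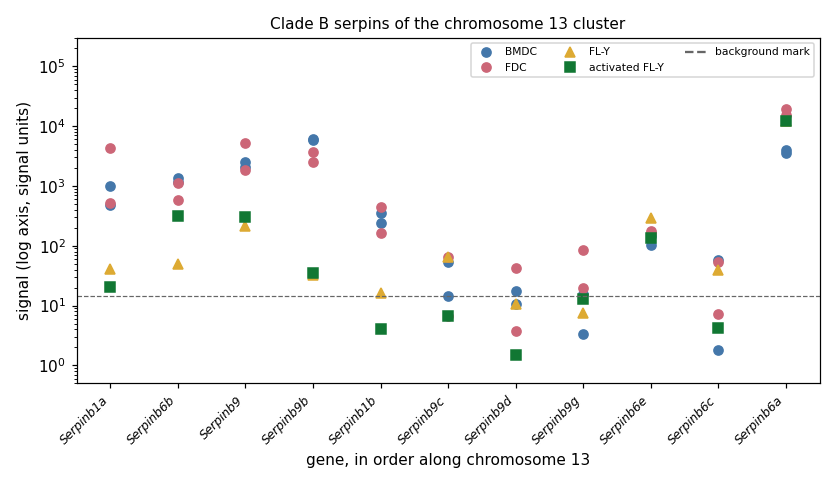
Signal (log axis) of the 11 measured clade B serpins of the chromosome 13 cluster, in their order along the chromosome, on the BMDC (blue), FDC (red), FL-Y (triangle) and activated FL-Y (square) arrays, with a dashed line at the background mark. The first 5 genes are lower on the FL-Y array than on all BMDC and FDC arrays, the next 3 are dim, and Serpinb6a is high on every array.

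Activation of FL-Y was compared over 1 array on each side, again with no test. Of 23 serpins above the same mark, 4 were at least 2-fold higher after activation, against 3.84% of all 14251 genes, and 8 were at least 2-fold lower, against 11.2%. The median log2 difference was -0.58 over the serpins and -0.09 over all genes. Among the 4 higher genes, the signal was above 100 for Serpinb6b and Serpinb2. Serpinb6b, whose promoter is printed above, went from 50.0 to 313.4, a log2 difference of 2.35, which left it below the FDC signals of 592.1 and 1134.1. Serpinb2 went from 184.1 to 501.1, a difference of 1.38. Both belong to clade B.

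The other 2 were Serpina9, a serpin of germinal centre B cells, which went from 5.7 to 38.0, and Serpinb7, which went from 2.3 to 29.8. Both stayed below 100, and their BMDC and FDC arrays ranged from 5.9 to 49.5 and from 5 to 56.1. Of the 8 lower genes, Serpinb6e went from 291.3 to 133.2, a difference of -1.05, and it was the only one above 100. It missed the 2-fold mark after quantile normalization (-0.96) and after rescaling to one median (-0.74). Serpina1b, Serpina12, Serpinb6c, Serpinb9c, Serpinb12, Serpind1 and Serpinf2 went from one dim signal to another, with differences between -1.28 and -2.53. Serpinf2 went from 77.6 to 1.7, Serpina12 from 71.9 to 17, and Serpinb9c from 63.7 to 6.7. Serpind1 went from 43.7 to 2.4, Serpinb6c from 39.2 to 4.2, Serpinb12 from 35.8 to 2 and Serpina1b from 29.1 to 3.6. A further, dim probe set of Serpina1b went the other way, from 2.7 to 8.6 (0.43). Those of Serpina12 (-0.38) and Serpinb12 (-0.04) fell by less than 2-fold, and that of Serpinb9c fell as well (-1.68). The BMDC and FDC arrays of Serpina12, Serpinb6c and Serpinb9c spanned ranges as wide, from 8.3 to 77.7, from 1.8 to 57.8 and from 6.7 to 63.9. The activated array had the lowest median of the 6, 47.8 against 60.9 on the FL-Y array. Its part in these low signals was not tested. Among the other genes above 100 on the FL-Y array, the difference was -0.58 for Serpinh1, -0.43 for Serpinf1, 0.49 for Serpinb9 and 0.01 for Serpinb6a. The replicate arrays give a scale for such differences: 15 of 30 serpins were at least 2-fold apart between the BMDC arrays, against 27.2% of all genes, and 17 of 33 between the FDC arrays, against 30.7%.

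Several enzymes that serpins inhibit were read from a list of plasminogen activation, clotting and granule proteases and their partners. Of 37 listed genes named on the array, 31 were tested, 11 were higher and 8 lower in FDC by limma, and the median log2 difference was 0.23. The shares over all genes tested were 5.99% higher and 5.45% lower, and their median was -0.03. The largest rises were those of Prss23, a secreted serine protease (6.41 ± 0.39, SE), the thrombin receptor thrombomodulin gene Thbd (6.17), the mast cell chymase Cma1 (5.47) and the secreted protease Htra1 (5.41). The largest falls were those of clotting factor F10 (-8.32), the endosomal protease Ctss (-6.87), and the neutrophil proteases Prtn3 (-5.88) and Elane (-5.76). Cma1, Prtn3 and Elane are also among the mast cell or neutrophil markers, whose part in the list's counts was not tested. This list too was chosen with earlier results of these data known, so its counts are no test against those shares.

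The proteases that the named serpins are known to bind were chosen after their values were seen. Plat, tissue plasminogen activator and the target of Serpini1, had signals of 6.6 and 16.4 in BMDC, 1466.2 and 504.0 in FDC, 1293.8 in FL-Y and 1231.6 in activated FL-Y. It was called higher in FDC (5.12 ± 0.61, SE; limma adjusted p = 0.0100), and unlike Serpini1 it stayed high in FL-Y. Plau, urokinase and the target of Serpinb2, had 565.0 and 675.4 in BMDC, 195.7 and 1172.5 in FDC, 187.8 in FL-Y and 214.8 in activated FL-Y. FDC array 2 was the highest for both Plau and Serpinb2. Gzmb, granzyme B and the target of Serpinb9, had 331.5 and 35.0 in BMDC, 1197.6 and 1709.0 in FDC, 3.1 in FL-Y and 14.5 in activated FL-Y. Its difference was 3.47 ± 0.95 (SE; adjusted p = 0.0951), and in FL-Y it was near background, where Serpinb9 kept a signal of 214.8. Ctsg, cathepsin G, fell by 4.26 on the log2 scale in FDC (SE 0.65, adjusted p = 0.0193), the opposite direction to its inhibitor Serpinb6a.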

How the data were processed

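Total RNA from 6 samples was labelled with biotin and hybridised to 1 array each, per the labels. The authors deposited 1 intensity per probe set and array for 45101 probe sets, on a linear scale. The mean after trimming 2% at each end was 500 on every array, as checked on the deposited values. The program, its background handling and detection calls were not given in the sources used here. Precision is limited by the number of arrays.

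The platform annotation named the genes: 1 gene for 34945 probe sets, several for 932 (none named from these) and none listed for 9160. Serpins absent from the 38 members were not analysed here. The probe sets read for 4 members end in _x_at and for 3 in _s_at, suffixes that mark probes shared with other transcripts. All 38 symbols were in the RefSeq gene table (GRCm38.p6), which gave gene order and promoters.

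Intensities were taken as log2(signal + 14.2), the median over arrays of the 20th percentile, which is no measured detection limit. Probe sets whose mean of these log2 values over the FDC and BMDC arrays passed that of a signal of 46.4 (27022) entered a limma fit (limma 3.58.1, R 4.3.3; lmFit, then eBayes, with 3.35 prior on top of 2 residual degrees of freedom), two-sided, with Benjamini-Hochberg adjustment over all of them at 0.05. The fit was tested on simulated data. With 2 arrays against 2, the smallest p of an exact permutation test is 0.333. FL-Y was described by 4-fold and activation by 2-fold differences, for genes above 2 times the offset on any of the arrays compared.

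Named with values were the serpins called, those past these folds, 16 preset serpins where measured, and up to 4 called genes of the protease and collagen lists. The members and lists were chosen with earlier results of these data known. Alternatives were other offsets, filters, scalings, probe set rules and variance models, a fit of all 6 arrays, a replicate block, and leaving out each array.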

Additional observations from a re-analysis of the deposited data

How the results depend on the processing

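Serpinh1 and Serpinf1 kept their calls under every alternative run. The 5 serpins called higher in FDC became 3 with no offset and 3 with no filter, and between 2 and 5 when each array was left out in turn. Of the protease list, the 11 called higher became 7 and the 8 called lower became 5 with no offset, and the lower count ran from 4 to 8 as single arrays were left out. With no offset, 1 serpin (Serpina12, log2 difference 2.11) was at least 4-fold higher in FL-Y than in FDC. After activation, with the offset at the 40th percentile, 2 serpins were higher and 1 lower, and for genes above 4 times the offset, 2 were higher and 4 lower. In all, 102 of 116 alternative counts lay within 1.5 times the main count. This total includes the serpins and the collagen genes called lower in FDC, which stayed at 0 under every alternative. It also includes the fit of all arrays together, whose counts equalled those of the main fit. The total is therefore no measure of how stable the other counts were.

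Serpina3n also lost its call with no offset (adjusted p = 0.0644) and no filter (0.0726), and Serpinb6a likewise (0.0517 and 0.0724). Serpina3i passed with the larger offset (0.0313), quantile normalization (0.0494), rescaling (0.0445) and robust variances with a trend (0.0438). The cause was not tested. Leave-one-out differences between FDC and BMDC ran from -0.41 to 2.61 for Serpinb1a, from -0.78 to 0.60 for Serpinb1b (0.17 without BMDC array 2) and from -0.30 to 1.19 for Serpinb9. With a replicate block, 4 serpins were higher, and Serpina3n had an adjusted p of 0.0570. The numbers are not known to pair the arrays: the first BMDC label has none, though same-numbered arrays had like ratios of labelling to hybridisation controls, and their deviations correlated at r = 0.199. Rescaling to one median moved the median difference of all genes from -0.14 to 0.24 for FL-Y against FDC and from -0.09 to 0.25 for activation.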

Other observations

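A probe set annotated to 4 clade B serpins at once, and therefore given to none of them, was brighter in FDC than elsewhere. Its signal was 23 and 50.4 in BMDC, 161 and 456.9 in FDC, 20.9 in FL-Y and 19.1 in activated FL-Y, and the log2 difference between FDC and BMDC was 2.55 ± 0.62 (SE; limma adjusted p = 0.0700). Another 2 probe sets shared by clade A serpins did not pass 33.6 and 52.4 on any array.

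With 2 arrays a group and a single array of each FL-Y state, differences of dim serpins cannot be told from the spread between arrays. SV40 transformation and any other way in which the FL-Y line differs from cultured FDC cannot be told apart.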
